A study of Mus musculus with 4 samples.

Results

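The 86 cytosolic ribosomal protein genes examined here were taken from 27179 genes by their symbols, the Rps or Rpl names with a number together with Rplp0, Rplp1, Rplp2 and Rpsa, without pseudogene names. Among them, 33 encode or resemble proteins of the small subunit and 53 proteins of the large subunit. They were measured by RNA-sequencing in leukemia-initiating cells (LICs) of MLL-AF9-induced acute myeloid leukemia, from bone marrow of mice on a C57BL/6 background aged 6 weeks. The labels name flow sorting without the gate, the study defines LICs as Mac-1+/c-Kit+ cells, and its sequencing methods speak of RNA from tissue. There were 2 libraries with the label WT and 2 with the label CD274-null, and the comparison asked which genes differ in LICs that lack CD274, the ligand of PD-1. In both groups, Lin- fetal liver cells had received MLL-AF9, a fusion oncogene, from a retrovirus and were transplanted into lethally irradiated C57BL/6 recipients. The donors were WT or carried a germline deletion of CD274, whereas the hosts were C57BL/6 mice in both groups. The round of transplantation and whether each library came from its own mouse are not given in the sources used here, so the p-values measure only the spread between these libraries.

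The ribosome of the cytosol is built from a small subunit, which reads the mRNA, and a large subunit, which joins the amino acids. Each carries rRNA and a set of ribosomal proteins that is nearly the same in all cells, and their mRNAs are among the most abundant of a growing cell. Most of these mRNAs start with a C followed by further pyrimidines, the terminal oligopyrimidine (TOP) motif, through which mTOR signaling sets how strongly they are translated. The genes are also known for processed pseudogenes scattered through the genome and for small nucleolar RNA (snoRNA) genes in their introns. Reduced dosage of single members underlies Diamond-Blackfan anemia and the anemia of the 5q- syndrome.

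The stretch around the transcription start is shown first for 8 members that the results below describe, because the TOP motif lies there. Rps4l, Rpl3, Rpl8, Rpl17 and Rpl32, which the results also describe, are not shown and do not enter the counts of runs. Each stretch runs from 40 bases before the annotated start through the first 20 transcribed bases, 5′ to 3′ on the strand of the gene, and comes from RefSeq on GRCm38.p6. Capitals mark a run of C and T that begins with C within 10 bases of the start and goes on for at least 4 further pyrimidines.

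Rps23, chr13:90923082-90923141, plus strand: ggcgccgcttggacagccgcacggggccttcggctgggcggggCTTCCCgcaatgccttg

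Rps12, chr10:23787190-23787249, minus strand: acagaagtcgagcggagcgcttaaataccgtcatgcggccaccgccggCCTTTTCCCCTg

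Rpl28, chr7:4792925-4792984, plus strand: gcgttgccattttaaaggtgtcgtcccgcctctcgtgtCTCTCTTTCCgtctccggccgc

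Rpl39l, chr16:10170188-10170247, plus strand: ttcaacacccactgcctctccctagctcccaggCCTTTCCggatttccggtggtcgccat

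Rps7, chr12:28635934-28635993, minus strand: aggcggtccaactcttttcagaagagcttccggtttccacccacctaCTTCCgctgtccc

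Rps9, chr7:3704001-3704060, plus strand: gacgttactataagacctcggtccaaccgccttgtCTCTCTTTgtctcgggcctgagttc

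Rpl4, chr9:64173347-64173406, plus strand: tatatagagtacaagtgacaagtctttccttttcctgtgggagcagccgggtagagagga

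Rplp0, chr5:115559427-115559486, plus strand: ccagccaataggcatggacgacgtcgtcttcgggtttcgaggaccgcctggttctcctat

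Of these 8 members, such a run was present in Rps23, Rps12, Rpl28 and Rpl39l, whose fitted log2 fold changes were above 0, and in Rps7 and Rps9, whose values were below 0, while Rpl4 and Rplp0, also below 0, had none in this range. Promoter windows of 300 bases, with 250 bases before and 50 after the start, were at hand for 64 of the 86 members, in 76 windows. The run was present in 42 of them (55.3%), against 30.7% of all 32851 windows of the same length. Other letters searched on both strands were CCGGAAG, present in 35.5% of member windows and 8.86% of all windows, TCTCGCGA, in 15.8% and 0.995%, AAGATGGCG, in 7.89% and 1.40%, and CACGTG, in 10.5% and 7.15%. Within 20 bases of the start, CTTCC occurred in 38.2% of member windows and 18% of all windows and CTTTCC in 14.5% and 3.68%, and the former can overlap with the pyrimidine run. A match of letters describes the sequence and was not measured as a bound site.

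The FPKM values, fragments scaled by gene length and by mapped reads, rested on about 11569000 and 10182000 mapped reads for WT replicates 1 and 2 and on about 8843700 and 9957800 for CD274-null replicates 1 and 2, as read from the steps of the deposited values. Whole reads were recovered for all 86 members. The deleted gene did not separate the libraries: Cd274 stood at 2.80 and 0.945 FPKM with the label WT and at 1.43 and 2.29 FPKM with the label CD274-null, so every direction below rests on the labels. The LIC markers Itgam (Mac-1), Kit, Hoxa9 and Meis1 were present in every library, with summed FPKM of 258 and 303 in WT against 232 and 294 in CD274-null. By log2 fold change, 2 of these 4 were higher in CD274-null. Neutrophil markers, all 9 of 9 tested, summed to 43460 and 8787 in WT and to 18340 and 31390 in CD274-null. Of these 9, 7 were higher in CD274-null by log2 fold change. Plasma cell markers, of which 3 of 8 were tested and all 3 were higher in CD274-null, summed to 186 and 75.8 against 361 and 308, with Igkc and Jchain as candidates. Erythroid markers, of which 3 of the 8 found were tested, summed to 2.92 and 55.7 against 4.85 and 0.589. Of the 3 tested, 0 were higher in CD274-null. Slc4a1 was 1 of 2 erythroid markers at 0 in all 4 libraries. B cell and T cell markers were tested for 1 of 8 genes each, higher in CD274-null in both lists, and summed to between 0.949 and 39.7 in every library. The part of these cells in the results was not tested, and in bulk RNA fewer cells of a type cannot be told apart from less RNA per cell.

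Ribosomal protein mRNAs were a large share of the transcriptome in all 4 libraries. Their share of all FPKM was 4.30% and 5.30% in WT, compared with 4.54% and 3.54% in CD274-null. The groups overlapped, since CD274-null replicate 1 lay between the WT libraries, and CD274-null replicate 2 was the lowest. The mean was 4.802% ± 0.705 (SD, n = 2) in WT against 4.04% ± 0.705 (SD, n = 2) in CD274-null (exact permutation test, two-sided, p = 0.667, where 0.333 is the smallest p that 2 against 2 libraries allow). Leaving the 100 highest other genes out of the sum gave 6.05% and 7.10% in WT against 6.27% and 5.06% in CD274-null, in the same order of libraries.

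Mean FPKM of single members spanned 0.849 to 1814 among the 85 that passed the filter of a mean FPKM of at least 0.5, with a median of 107 against 12.03 over all tested genes. Rpl8, a protein of the large subunit near its catalytic center, had the highest level, with FPKM of 1847 and 2149 in WT against 1837 and 1421 in CD274-null. Rpl4, Rps9 and Rpl32 were also among the highest. Rpl4 reached 1650 and 1936 in WT against 1690 and 1237 in CD274-null. Rps9 reached 1450 and 1422 in WT against 1223 and 1006 in CD274-null. In Rpl8, Rpl4 and Rpl32, WT replicate 2 was the highest library and CD274-null replicate 2 the lowest, whereas in Rps9 WT replicate 1 was highest. The lowest member, Rpl10l, a retrogene copy of Rpl10 known from testis, stayed under the filter, with 0 reads in both WT libraries and 1 and 3 reads in the CD274-null libraries. A count of 0 allows an FPKM of up to 0.253 and 0.288 there, at 3 reads per library.

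In the comparison of CD274-null with WT, 2 of 85 tested members were candidates (a fold change above 1.5 at an unadjusted p under 0.01, limma), Rps4l and Rps23, both higher in CD274-null. Among all 13230 genes, 480 were candidates (3.63%), 2.39% higher and 1.24% lower. After Benjamini-Hochberg adjustment in limma, 1 member, Rps4l, kept an adjusted p under 0.05, against 0.0756% of all genes, and 5 members had an unadjusted p under 0.05, against 13.7%. The share of candidates among the members was thus near that of the genes at large. Most members moved little. A fold change within 1.5-fold in either direction was found for 79 of 85 members (92.9%), against 73.6% of all genes. All log2 fold changes are on the log2(FPKM + 0.5) scale, which understates the changes of low genes.

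**Figure D1:**
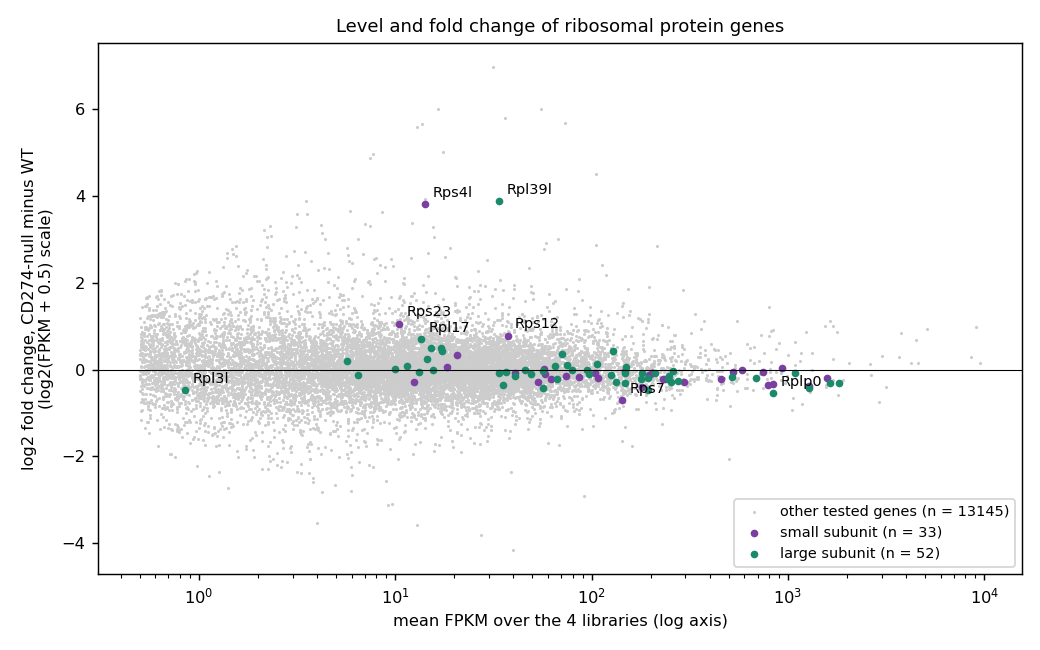
Mean FPKM over the 4 libraries (log axis) against the log2 fold change, CD274-null minus WT, for 33 small-subunit members (purple), 52 large-subunit members (green) and the 13145 other tested genes (grey), each point 1 gene. Rps4l (3.82) and Rpl39l (3.88) stand above the rest of the members, which lie close to 0, and 27 of the 28 highest members lie below it. For 8 of these 28, both CD274-null libraries lay below both WT libraries, and the split by sign over all members depended on single libraries.

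Rps4l, annotated as a transcribed pseudogene and a relative of Rps4x, was the member with the clearest difference. Its FPKM of 1.65 and 1.252 in WT compared with 26.9 and 26.9 in CD274-null, on 18, 12, 224 and 252 reads. Both CD274-null libraries thus lay far above both WT libraries, and the groups did not overlap. The log2 fold change was 3.82 (standard error, SE, 0.28, 95% interval 3.15 to 4.49, limma adjusted p = 0.0176), and the ratio of the mean FPKM, without a pseudocount, was 18.5. Over 19 alternative settings it remained between 3.51 and 4.17 and was a candidate in 19 of 19, while its adjusted p ran from 0.0106 to 0.517 and was under 0.05 in 9 of 19. Leaving out WT replicate 1, CD274-null replicate 1 or CD274-null replicate 2 each ended the adjusted call.

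The Rps4l locus is a single block of 941 bases at chr6:148354656-148355596 (GRCm38), inside Tmtc1. Tmtc1 itself was nearly silent, with FPKM of 0.0104 and 0.0588 in WT against 0 and 0.0361 in CD274-null, and Ipo8, a neighbouring gene, had 11.9 and 10.3 in WT against 11.2 and 9.07 in CD274-null. The difference was therefore not shared by these genes. In windows of 50 bases, the read length of the study, 85.0% of Rps4l occurs in no other annotated gene, and 1 other gene shares windows with it. Its parent family member Rps4x, an X-linked protein of the small subunit, had 298 and 350 in WT against 310 and 228 in CD274-null (log2 fold change −0.28, SE 0.26), with overlapping groups. Per length, Rps4l stood at 0.556% and 0.358% of Rps4x in WT and at 8.68% and 11.8% in CD274-null.

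Rps23, which sits at the decoding center of the small subunit, was the other candidate. Its FPKM was 7.94 and 5.49 in WT against 14.5 and 14.1 in CD274-null, from 51, 31, 71 and 78 reads. The CD274-null libraries were both higher and close to each other. The log2 fold change was 1.06 (SE 0.28, unadjusted p = 0.0088, adjusted p = 0.274, limma). It kept its direction in 19 of 19 alternatives, between 0.809 and 1.3, but was a candidate in only 5 of them, with adjusted p from 0.253 to 0.954. Of its windows, 48.3% are found in no other gene and 15 other genes share the rest, so that reads of processed copies could be counted with it or lost to them.

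Rps12, a small-subunit protein at the beak of the subunit, had 33.4 and 22 in WT against 45.6 and 48.3 in CD274-null. Its groups did not overlap, and its log2 fold change of 0.78 (SE 0.26) had an unadjusted p of 0.0229 in limma but an adjusted p of 0.313. Rpl17, which lines the exit of the peptide tunnel, had 10.8 and 9.505 in WT against 15.3 and 18.5 in CD274-null. Both CD274-null libraries were again above both WT libraries, at a log2 fold change of 0.71 (SE 0.25, adjusted p = 0.328, limma). Rpl28 had 12.5 and 12.5 in WT against 17.6 and 18.4 in CD274-null, which gave a log2 difference of 0.51 (SE 0.22, adjusted p = 0.385, limma). Rpl3, a core protein near the peptidyl transferase center, had 110.4 and 108.0 in WT against 153 and 144 in CD274-null, which gave a log2 difference of 0.44 (SE 0.20, adjusted p = 0.398, limma). In all 4 genes both CD274-null libraries lay above both WT libraries, but none passed the adjusted threshold. Windows found in no other gene made up 16.5% of Rps12, 21.3% of Rpl17, 65.5% of Rpl28 and 14.4% of Rpl3.

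Rps7 was the member with the largest decrease. Its FPKM was 168 and 185 in WT against 131 and 89.2 in CD274-null, both CD274-null libraries being lower, on 1869, 1815, 1113 and 854 reads. The log2 difference was −0.71 (SE 0.26, unadjusted p = 0.0316, adjusted p = 0.334, limma). Rplp0, the base of the ribosomal stalk and a common reference gene in quantitative PCR, had 902 and 1087 in WT against 785 and 589 in CD274-null. Its groups did not overlap either, at a log2 fold change of −0.54 (SE 0.30, adjusted p = 0.461, limma). The stalk proteins that bind to it were less separated: Rplp1 had 1003 and 1247 in WT against 1189 and 928 in CD274-null, and Rplp2 had 507 and 597 against 504 and 478. Rplp1 overlapped between the groups, and in Rplp2 the lower WT library and the higher CD274-null library differed by less than the spread between the WT libraries.

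Rpl39l showed a pattern unlike that of any other member named here. It was nearly silent in 3 libraries and high in 1. The FPKM was 0 and 0.122 in WT against 135 and 0 in CD274-null, from 0, 1, 961 and 0 reads. The whole signal thus came from CD274-null replicate 1, where a gene that is known mainly from testis and cancer cells reached 76.2% of the level of its paralog Rpl39. In the libraries at 0, a count of 0 allows an FPKM of up to 0.322 in WT replicate 1 and 0.374 in CD274-null replicate 2, at 3 reads per library. Its fitted log2 fold change of 3.88 (SE 2.32, adjusted p = 0.499, limma) rests on this library, and without it the value was −0.16. All of its windows (100%) occur in no other annotated gene. The neighbouring genes did not rise with it in that library: Grin2a was at 0 in all 4 libraries, and Atf7ip2 had 0.819 and 1.154 in WT against 0.985 and 0.0761 in CD274-null.

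**Figure D2:**
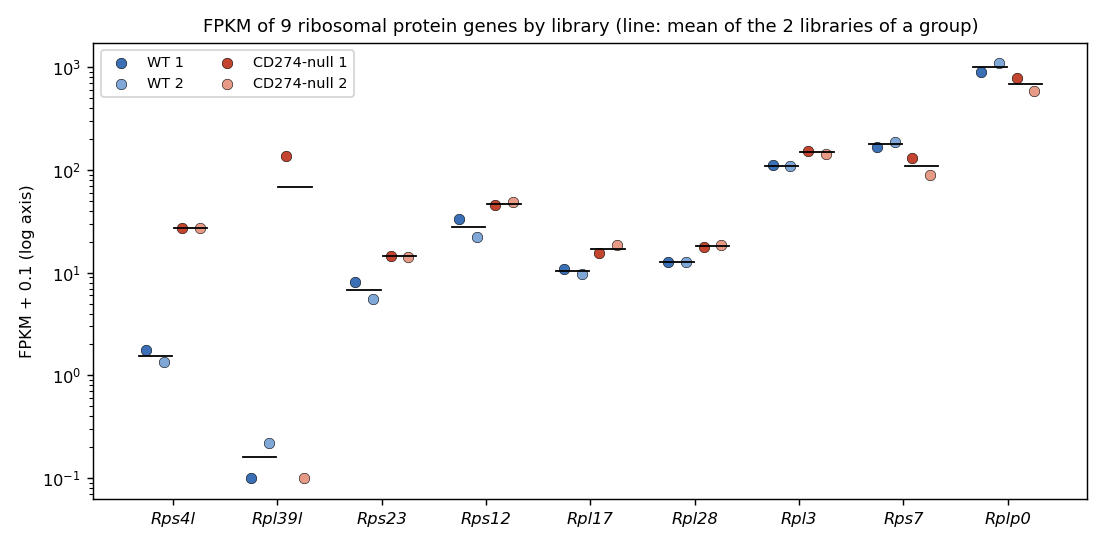
FPKM + 0.1 (log axis) of 9 ribosomal protein genes in the 4 libraries, WT in blue and CD274-null in red, with a line at the mean of the 2 libraries of a group. Rps4l is high in both CD274-null libraries (26.9 and 26.9) and Rpl39l in CD274-null replicate 1 alone (135), while the other genes differ by smaller factors.

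Of 85 tested members, 22 were higher in CD274-null and 63 lower (25.9% higher, against 51.1% of all genes), and the median log2 fold change was −0.09, against 0.01 for all genes. This split depended on single libraries: 43 members were higher without WT replicate 2 and 47 without CD274-null replicate 2, and 17 were higher without WT replicate 1 and also without CD274-null replicate 1. The median moved likewise, to −0.21 without WT replicate 1, 1.4e-05 without WT replicate 2, −0.24 without CD274-null replicate 1 and 0.033 without CD274-null replicate 2, and it was −0.19 once the libraries were corrected for GC content (−0.02 over all genes), −0.19 once they were corrected for gene length (−0.03 over all genes) and −0.15 when they were scaled to equal sums without the members (−0.04 over all genes). Both CD274-null libraries lay above both WT libraries for 10 tested members (11.8%, against 25.6% of all genes) and below for 15 (17.6%, against 21.8%), and the groups of the other 60 overlapped. WT replicate 2 was the highest library for 57 of 85 members (3869 of 13230 genes) and CD274-null replicate 2 the lowest for 57 (4667 of 13230 genes). Compared directly, 70 members were higher in WT replicate 2 than in WT replicate 1 (median log2 difference 0.22, against 0.06 over all genes), and 74 were lower in CD274-null replicate 2 than in CD274-null replicate 1 (median −0.28, against −0.14 over all genes, of which 8649 of 13230 were lower). Between genotypes, the median was 0.13 for CD274-null replicate 1 minus WT replicate 1 and −0.08 for CD274-null replicate 1 minus WT replicate 2. It was −0.14 for CD274-null replicate 2 minus WT replicate 1 and −0.37 for CD274-null replicate 2 minus WT replicate 2, where 72 members were lower. The last was the largest of the 6 pairwise medians, and the medians within a genotype lay, in size, between it and the other 3. WT replicate 2 was also the library with the lowest neutrophil sum (8787) and the highest erythroid sum (55.7), and the part of these cells in the order of the libraries was not tested.

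**Figure D3:**
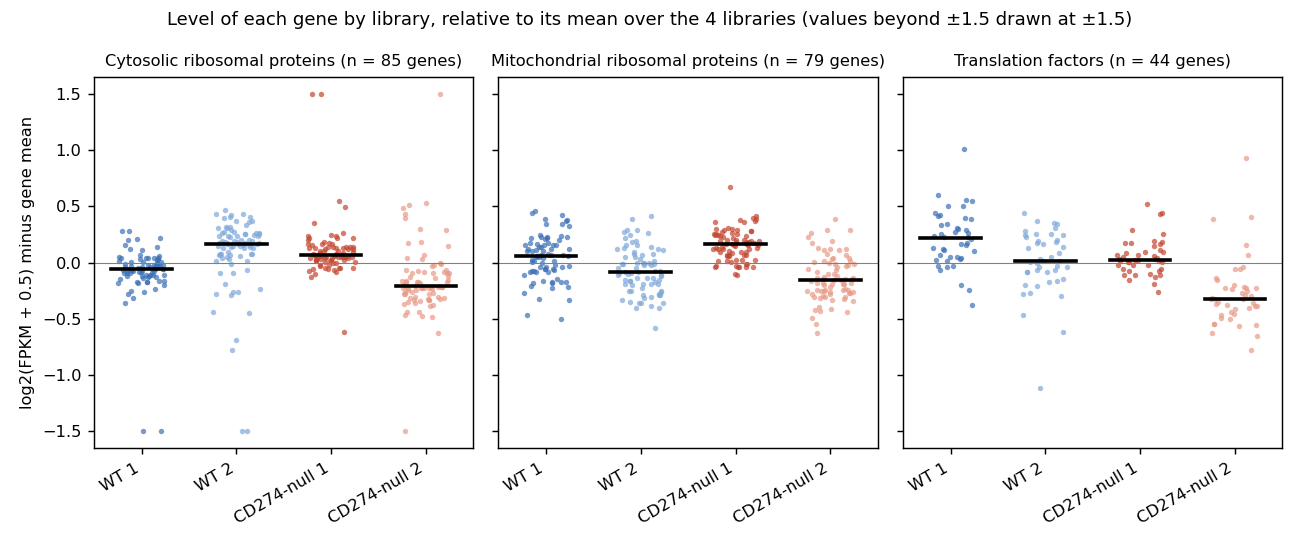
Deviation of log2(FPKM + 0.5) from the mean of each gene over the 4 libraries, for cytosolic ribosomal proteins (85 genes), mitochondrial ribosomal proteins (79) and translation factors (44); points are genes and black lines medians. The cytosolic ribosomal proteins are highest in WT replicate 2 and lowest in CD274-null replicate 2, and the mitochondrial ones do not follow the rise in WT replicate 2.

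In the small subunit 7 of 33 members were higher in CD274-null, at a median log2 fold change of −0.13, and in the large subunit 15 of 52, with a median of −0.08. Both CD274-null libraries lay below both WT libraries for 8 members of the small subunit (24.2%) and 7 of the large subunit (13.5%), and the difference between the subunits was not tested. Both candidates belonged to the small subunit. Other parts of the translation machinery were examined for comparison. Of 79 genes for ribosomal proteins of the mitochondrion, 39 were higher and 40 lower, with a median of −0.01 and 0 candidates in limma (2 at an unadjusted p under 0.05). Unlike the cytosolic members, 51 of these 79 were lower in WT replicate 2 than in WT replicate 1. Of 44 translation factor genes, 8 were higher and 36 lower, with a median of −0.30, and both CD274-null libraries lay below both WT libraries for 19 of them (43.2%, against 21.8% of all genes). CD274-null replicate 2 was the lowest library for 35 of the 44, with a median log2 difference of −0.39 from CD274-null replicate 1, whereas CD274-null replicate 1 minus WT replicate 2 had a median of −0.019 (21 higher and 23 lower). The single candidate of that list was Eif4a2, an RNA helicase of translation initiation, with 117 and 63.3 in WT against 186 and 262 in CD274-null. Fau, a ribosomal protein gene outside the naming rule, had 88.8 and 104 in WT against 84.1 and 86.9 in CD274-null. Rack1, a scaffold protein of the small subunit, had 1606 and 1854 in WT against 1607 and 1146 in CD274-null.

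The share of members that were lower in CD274-null rose with the level of a member. The 28 members of highest mean FPKM (196 to 1814) held 1 that was higher in CD274-null and 27 that were lower, with a median log2 fold change of −0.21. The 28 of middle level (57.4 to 195) held 7 higher and 21 lower, with a median of −0.11. The 29 of lowest level (0.849 to 56.3) held 14 higher and 15 lower, with a median of −0.01. In the same ranges of FPKM, 139 of 278, 667 of 1296 and 5451 of 10727 other genes were higher. Both CD274-null libraries lay below both WT libraries for 8, 5 and 2 members from highest to lowest level, against 21.8% of all genes. They lay above both WT libraries for 0, 2 and 8 members, against 25.6% of all genes. Most members at each level thus had overlapping groups, and the split over all members depended on single libraries, as given above. Across the 85 members, Spearman's rho between mean FPKM and log2 fold change was −0.49, as a description of genes that share the same 4 libraries and the same scaling. The single highly expressed member that was higher in CD274-null was Rps15, at 824 and 1012 in WT against 969 and 909 in CD274-null, within the WT range in both libraries. Its sign turned without WT replicate 1 and also without CD274-null replicate 1.

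None of the members named here for anemia or the p53 response was called. Rps14, the gene of the 5q- syndrome, had 773 and 1010 in WT against 773 and 620 in CD274-null. Rps19, the gene most often affected in Diamond-Blackfan anemia, had 183 and 228 in WT against 175 and 135 in CD274-null (log2 fold change −0.40, SE 0.25, adjusted p = 0.506, limma). For both genes the CD274-null values lay below the WT values, though WT replicate 1 and CD274-null replicate 1 were nearly equal in Rps14. Of the other anemia genes, Rps24, Rps26 and Rpl35a had log2 fold changes between −0.04 and 0.06 with overlapping groups. Rpl5 and Rpl11, which bind Mdm2 together with 5S rRNA, had log2 fold changes of −0.35 (SE 0.26) and −0.06 (SE 0.25), and Rpl23, which also binds Mdm2, had −0.08 (SE 0.24). Rpl5 had 35.7 and 42.9 in WT against 37.0 and 25.3 in CD274-null. Rps6, the substrate of S6 kinase, had 16.8 and 19.0 in WT against 19.2 and 18.2 in CD274-null, and Rpsa, which is also a laminin receptor, had 72.1 and 82.8 against 77.1 and 63.3. Leaving out 1 library turned the sign of Rps6, Rpl11, Rpl23, Rps24, Rps26 and Rpl35a.

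Of the X-linked members, Rpl10 and Rpl36a lay higher in both CD274-null libraries. Rpl10 had 66.5 and 57.8 in WT against 72.7 and 86.5 in CD274-null (log2 fold change 0.35, SE 0.21, adjusted p = 0.506, limma). Rpl36a had 15 and 14.1 in WT against 24.0 and 16.2 in CD274-null (log2 fold change 0.43, SE 0.27, adjusted p = 0.517, limma). Rpl39 and Rps4x had overlapping groups. Rpl10 is also among the members that are hardest to count, as 7.87% of its windows occur in no other gene.

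The paralogs of the family differed widely in their level relative to the main gene. Rpl22l1 reached 72.5% and 63.3% of Rpl22 in WT against 76.3% and 80.7% in CD274-null, and both libraries of CD274-null lay above those of WT in this ratio. Rps27l, known as a p53 target, exceeded Rps27 in every library, at 797% and 515% of its level in WT against 613% and 307% in CD274-null. Rps27 itself had 15.6 and 20.5 in WT against 19.5 and 26.9 in CD274-null, with 48.9% of its windows found in no other gene. Rps27l had 125 and 106 in WT against 119 and 82.7 in CD274-null, with 86.3% of its windows found in no other gene. Rpl7l1 stood between 16.8% and 20.3% of Rpl7 in all libraries, and Rpl32l between 14.7% and 15.6% of Rpl32. Rpl3l, the form of Rpl3 known from muscle, was at 0.867 and 1.23 in WT against 0.354 and 0.944 in CD274-null, near the filter. Its share of Rpl3 was 0.785% and 1.14% in WT against 0.232% and 0.658% in CD274-null. Rpl10l, on 0 to 3 reads per library, stood at 0% of Rpl10 in both WT libraries and at 0.152% and 0.340% in CD274-null. The shares of Rps4l and Rpl39l are given with those genes above.

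Sequence copies limit what can be read from the family. Over the 84 tested members with an annotated transcript, a median of 56.2% of the windows of 50 bases occurred in no other annotated gene, against 100% for all tested genes. For 37 members (44.0%) under 50% of the windows did so, against 2.25% of all tested genes. How the authors' counting treated reads that fit several places is not given in the sources used here. Rpl9 (6.68% of windows), Rpl10 (7.87%), Rps18 (13.3%) and Rpl3 (14.4%) had few such windows, and Rpl3l and Rpl39l had 100%. Rpl8, at 92.1%, showed the same library order as most members, with WT replicate 2 highest and CD274-null replicate 2 lowest. Across these 84 members, Spearman's rho was 0.27 between the share of such windows and mean FPKM and −0.24 between that share and the log2 fold change, again as descriptions without a test.

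**Figure D4:**
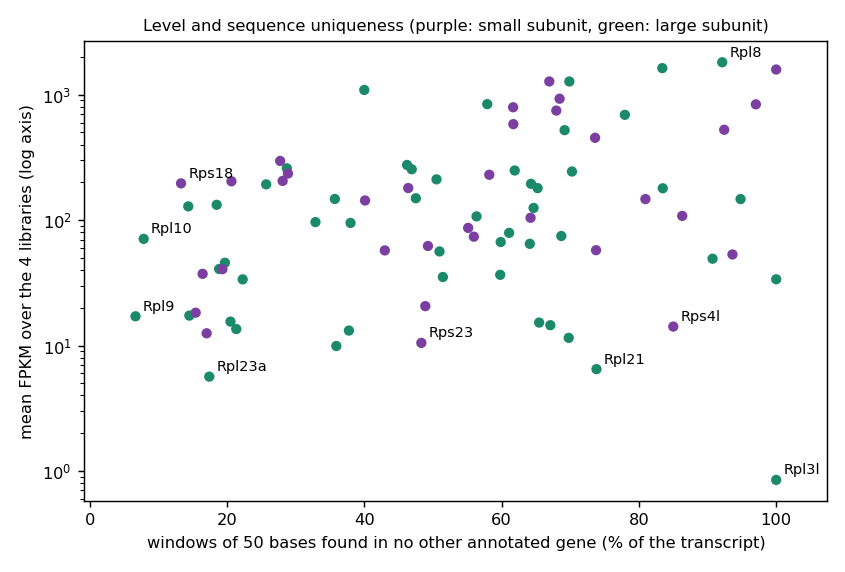
Share of 50-base windows found in no other annotated gene against mean FPKM over the 4 libraries (log axis), each point 1 of 84 tested members, small subunit in purple and large subunit in green. Members such as Rpl9 (6.68%), Rpl10 (7.87%) and Rps18 (13.3%) share most of their sequence with other genes, while Rpl8, the member of highest level, is at 92.1%.

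The snoRNA genes inside the members differed in direction from most of their hosts. The table held 34 of them, inside 24 members, and all 34 were tested. Of these, 31 were higher in CD274-null (91.2%, against 51.1% of all genes), with a median log2 fold change of 0.75. Both CD274-null libraries lay above both WT libraries for 19 of them and below for 1, against 25.6% and 21.8% of all genes. The 24 host genes, in contrast, held 7 that were higher, with a median of −0.09, close to the other 61 members, which held 15 higher and a median of −0.10. snoRNA genes elsewhere in the genome showed the same side, with 52 of 71 higher (73.2%) and a median of 0.50, so the direction was not particular to these hosts.

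Among the 34 snoRNA genes, 7 were candidates higher in CD274-null and 1 was a candidate lower, against 2.39% and 1.24% of all genes and 12 and 1 of the 71 snoRNA genes elsewhere. Snord83b, an intronic snoRNA gene of Rpl3 at chr15:80078503-80078579, had an FPKM of 32.6 and 33.2 in WT against 145 and 136 in CD274-null. It was the only one of the 34 with an adjusted p under 0.05 (log2 fold change 2.08, SE 0.20, adjusted p = 0.0415, limma). Snord43, also inside Rpl3, had 25.2 and 18.4 in WT against 68.3 and 83.7 in CD274-null. Rps12 likewise held 2 candidates, Snora33 with 9.88 and 7.48 in WT against 37.7 and 50.7, and Snord100 with 47 and 26 against 86.5 and 180. Rpl3 and Rps12 were themselves higher in both CD274-null libraries, but by smaller log2 fold changes (0.44 and 0.78) than their snoRNA genes. The remaining candidates that were higher lay inside Rpl39 (Snora69), Rps3 (Snord15b) and Rpl13a (Snord34), whose own log2 fold changes were below 0, and Snora78 inside Rps2 was lower, with 25.3 and 36.3 in WT against 13.7 and 13.4 in CD274-null. These genes are short, with a median of 88.0 bases, and the libraries were not made for small RNAs. Since the strand and overlap settings of the counting are not given, reads of a snoRNA and of an unspliced host transcript cannot be told apart.

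**Figure D5:**
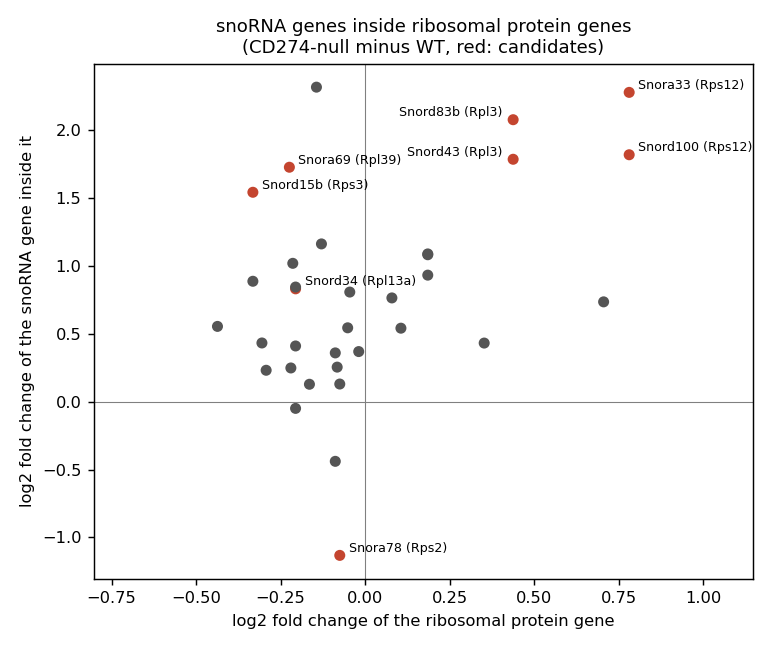
Log2 fold change (CD274-null minus WT) of 34 snoRNA genes against that of the ribosomal protein gene that holds them, each point 1 snoRNA gene and candidates in red with the host in parentheses. Most points (31 of 34) lie above 0 on the snoRNA axis while most hosts lie below 0 on theirs.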

How the data were processed

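RNA of LICs was sequenced in 4 libraries (TruSeq v2, HiSeq2500), 2 labelled WT and 2 labelled CD274-null. Reads were mapped to GRCm38 by the authors using TopHat2 2.0.12 (the submitters' processing notes also name CASAVA 1.8.2), and the authors deposited FPKM values per gene, not log-transformed. The program, gene lengths and strand setting behind FPKM are not given in the sources used here. Groups came from the labels, and 0 columns were left unassigned.

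The steps of the FPKM values gave whole reads for 17083 genes, 100% of the genes detected in 2 or more libraries. The implied gene length was whole (within 0.05 bases) for all 86 members and within 10% of an annotated transcript for 65 of 85. For 13 members this held after multiplication by a whole factor above 1. The scale and the factors were chosen so that lengths came out whole, with annotated lengths as a guide, so wholeness is no independent check.

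Members and lists were chosen with earlier results of these data known. For the main test, log2(FPKM + 0.5) was fitted in limma 3.58.1 under R 4.3.3 (lmFit, then eBayes using a trend) over 13230 genes whose mean FPKM reached 0.5, two-sided, with Benjamini-Hochberg adjustment over these genes. The recovery and the fit were tested on simulated data. There, reads were recovered in lowest terms for 100% of 1471 genes and in full for 91.57%, before any common factor was set. Single values were compared by exact permutation (scipy 1.17.1, Python 3.11.15). Named were candidates, the 8 members with the largest change, the 5 with the highest level, and members listed by role (stalk, paralogs, Mdm2 binding, anemia, X-linked, Rpsa, Rps6), with candidate snoRNA genes inside members. Some genes that this rule or the lists name are not reported here. Rps15, Rps18, Rpl9 and Rpl32l were named after their values were seen. Alternatives were other pseudocounts (1 and 0.1), filters, scalings and variance models, the replicate block, GC and length corrections (loess, span 0.3), limma's voom on recovered reads, and leaving out each library.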

Additional observations from a re-analysis of the deposited data

How the results depend on the processing

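Among the ribosomal protein genes, 2 were candidates, and 1 (Rps4l) remained without the filter on low values, with quantile normalization, equal medians, equal sums without the members, eBayes without trend, no moderation of the variance, the length correction and voom on recovered reads, and Rps23 lost its call there. Leaving out each library gave 1 to 3. The count with an adjusted p under 0.05, 1 in limma, was 0 without the filter, without moderation, with the GC or length correction and with voom, and 0 to 1 when a library was left out. Between 17 and 47 members were higher in CD274-null when a library was left out. The 480 candidates among all genes were 170 without moderation and 147 to 634 when a library was left out. The 1 candidate among translation factors was 0 with equal medians and 0 to 2 when a library was left out. The labels number the replicates, but same-numbered libraries did not deviate together (correlation of deviations −0.0151), so the numbers were not taken as pairs. With the replicate block, candidates among the members were 1 and among all genes 526, 22 members were higher and 1 kept an adjusted p under 0.05. With the block and the GC correction these were 1 member and 269 genes, and with the block and the length correction 1 member, with 0 members at an adjusted p under 0.05 in both. The GC correction moved the share of higher calls among all candidates from 65.8% to 48.6%, quantile normalization to 54.6% and the length correction to 50.4%. Leaving out each library in turn gave log2 fold changes from −0.19 to 0.068 for Rpl11, −0.26 to 0.095 for Rpl22, −0.0085 to 0.27 for Rpl22l1, −0.29 to 0.12 for Rpl23, −0.036 to 0.15 for Rpl35a, −0.48 to 0.035 for Rpl39, −0.16 to 7.92 for Rpl39l, −0.38 to 0.17 for Rpl7l1, −0.27 to 0.089 for Rplp1, −0.19 to 0.11 for Rps24, −0.19 to 0.16 for Rps26, −0.47 to 0.057 for Rps27l and −0.020 to 0.15 for Rps6. The sign also turned for Rps24 (0.040) and Rps26 (0.0081) with the GC correction, with or without the block, for Rps6 (−0.053) with the length correction, with or without the block, and for Rpl35a (−0.000298) with equal sums. The causes were not tested. A gene has 2 values per group here, so limma takes most of its error from genes of similar level, and the calls of Rps4l and Rps23 rest on 12 to 252 and 31 to 78 reads per library.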
